A study of Danio rerio with 16 samples.

Results

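The sites described here are 820 poly(A) sites of the zebrafish, Danio rerio, whose 3P-Seq level was highest in embryos at 24 hours post fertilization (hpf). They were taken from 90940 poly(A) sites found in 3 libraries, of which 15111 reached the required level at 24 hpf. 3P-Seq sequences the ends of polyadenylated RNA, so that each tag marks the place where a poly(A) tail begins. The libraries were made from wild-type whole embryos at 24 hpf, wild-type whole embryos at 72 hpf and wild-type whole adults, both sexes mixed, and each stage had a single library. They belong to a series of 16 samples on long intergenic noncoding RNAs, and the other 13 samples were not analysed here.

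A site was the position with the most tags together with all unused positions of the same strand within 10 nt, and a site needed at least 4 tags in all. Its level is given in CPM, the tag count scaled to 1000000 tags per library. A member had at least 3 CPM at 24 hpf, and this level was at least 4 times the level plus 0.5 CPM of both later libraries. Chromosome M, chromosome 4 from 28000000 and a stretch of chromosome 22 that begins at 25000000 were left out. Positions are 1-based coordinates of the build danRer7 (Zv9). The levels of the members at the stages chose them, so these values are a description and carry no test. No stage was replicated, so every comparison is between these libraries. In whole animals, fewer cells that make a transcript and less of it per cell cannot be told apart. No gene annotation of danRer7 was used here, so sites are named by chromosome, strand and position.

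A transcript ends where the nascent RNA is cut and a poly(A) tail is added, and most vertebrate genes can end at more than 1 place. Counts at an end thus depend both on how much of a transcript is made and on which of its ends is used. At 24 hpf the zebrafish embryo has its body axis, somites and a beating heart and is still inside the chorion. By 72 hpf most embryos have hatched, and the larval organs are forming. Some messages are made for early stages only, such as those of the hatching enzymes that open the chorion.

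Depth was 7423152 tags in the 24 hpf library, 9813481 in the 72 hpf library and 7470435 in the adult library. A count of 0 allows up to 0.404 CPM at 24 hpf, 0.306 CPM at 72 hpf and 0.402 CPM in the adult. These limits and all intervals below cover counting error only, since tags copied from 1 molecule by PCR are not independent. A distinct interval had on average 31.5 tags in the 24 hpf library, 30.7 in the 72 hpf library and 14.4 in the adult library.

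Of the 15111 sites with at least 3 CPM at 24 hpf, the 820 members, past the 4-fold limit at both later stages, made up 5.43%. A further 539 sites (3.57%) were past it at 72 hpf alone and 3177 (21.0%) in the adult alone. The members took 17.1% of all tags of the 24 hpf library, 1.44% of the 72 hpf library and 0.595% of the adult library. The share of the 24 hpf library was 8.54% without members of over 1000 tags whose count was within 1.1 times of another within 1 Mb, and 8.23% without a block of chromosome 12 described below. Their summed level was 170586 CPM at 24 hpf, 14359 CPM at 72 hpf and 5954 CPM in the adult.

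Most members were weak, and a few carried most of the tags. The median member had 8.62 CPM at 24 hpf, with quartiles of 4.71 and 28.7 CPM and a range of 3.10 to 17919.5 CPM. At 72 hpf the median was 0.560 CPM, and in the adult it was 0.134 CPM, which is the worth of a single tag. The other 14291 sites over the 24 hpf limit had medians of 10.6 CPM at 24 hpf, 12.7 CPM at 72 hpf and 7.23 CPM in the adult. The 10 members with the most tags held 56.0% of all member tags at 24 hpf, and the leading 50 held 89.4%. Without the leading 10, the members still took 7.50% of the 24 hpf library, 0.803% of the 72 hpf library and 0.377% of the adult library.

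**Figure D1:**
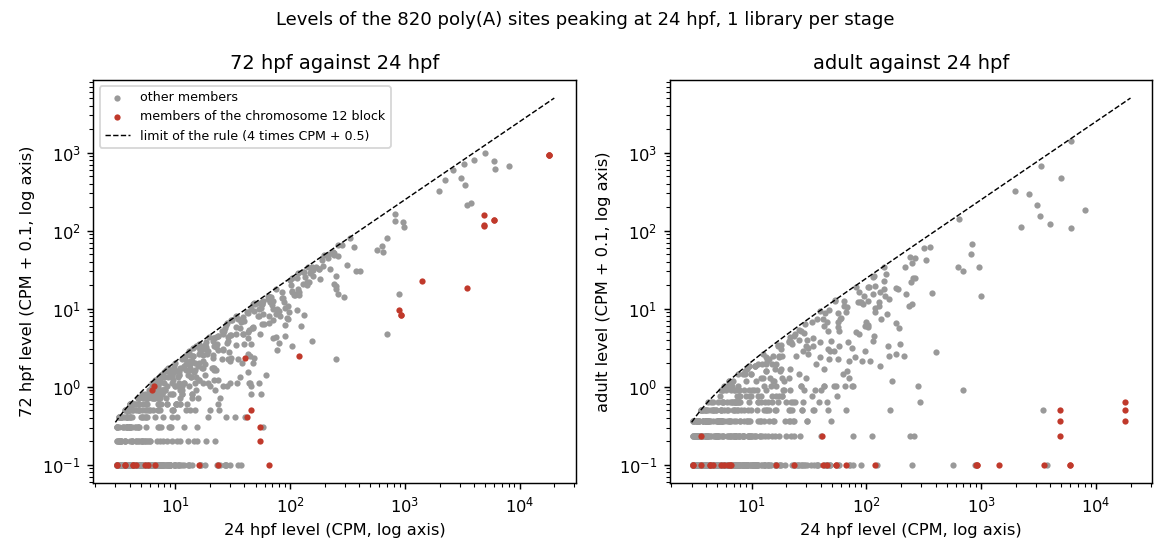
Level of each of the 820 members at 72 hpf (left) and in the adult (right) in CPM + 0.1, against its level at 24 hpf in CPM, both on log axes, with 1 point per site. The dashed line is the limit set by the rule, and the strong members of the chromosome 12 block lie far below it, with at most 4 adult tags each.

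The share of members was highest among the strongest sites and lowest in the middle of the range. Of the sites with 3 to 5 CPM at 24 hpf, 6.64% were members, the share was 4.05% between 10 and 30 CPM, and it was 6.58% between 100 and 1000 CPM. Above 1000 CPM, 23 of 120 sites (19.2%) were members. Of these 23 members, 10 lay in a single block of chromosome 12, and in the rest of the genome 13 of 110 sites (11.8%) were members.

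The 10 members with the highest 24 hpf level lay on 5 chromosomes, and 6 of them were on chromosome 12. The minus-strand site at 17701282 of chromosome 12 led with 17919.5 CPM at 24 hpf, 942 CPM at 72 hpf and 0.535 CPM in the adult. It was followed by the minus-strand sites at 17962598 (17882, 935 and 0.402 CPM) and 17784892 (17842, 944 and 0.268 CPM). The other chromosome 12 sites among the 10 were 17941585 on the minus strand (5953 CPM at 24 hpf, 135 CPM at 72 hpf and no adult tag), 17758538 on the minus strand (5919 CPM, 136 CPM and no adult tag) and 17586055 on the plus strand (4891, 159 and 0.134 CPM). All 6 had almost no adult tags and still stood well above 100 CPM at 72 hpf.

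The other 4 of the 10 kept a clear adult level. The chromosome 21 minus-strand site at 286522 had 8052 CPM at 24 hpf, 673 CPM at 72 hpf and 184 CPM in the adult. It was 11.96-fold lower at 72 hpf than at 24 hpf (95% interval 11.7 to 12.3) and 43.7-fold lower in the adult (interval 41.4 to 46.1). The chromosome 23 plus-strand site at 45382174 had 6017 CPM at 24 hpf, 785 CPM at 72 hpf and 109 CPM in the adult. The chromosome 6 minus-strand site at 57428413 had 4992 CPM at 24 hpf, 993 CPM at 72 hpf and 472 CPM in the adult, and it was the closest of the 10 to the limit at 72 hpf, 5.03-fold lower (interval 4.92 to 5.14). The chromosome 20 plus-strand site at 31310796 was lowest at 72 hpf, with 6108 CPM at 24 hpf, 623 CPM at 72 hpf and 1415 CPM in the adult. Its adult level was 4.32-fold lower than at 24 hpf (interval 4.23 to 4.41), and with median-ratio scaling it was no longer a member.

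The size of these folds depended on counting tags. With distinct intervals in place of tags, the 24 hpf level of the leading 10 was 1.89 to 6.95 times the higher later level (measured as CPM + 0.5), and 3 of the 10 passed the limits. By this count 17701282 had a ratio of 2.75, in place of 19.0 by tags, and 286522 had 2.03, in place of 11.9. Interval counts differed far less than tag counts at strong ends. Site 17701282 had 133019 tags on 61 intervals at 24 hpf and 9249 tags on 30 intervals at 72 hpf. The libraries also held unlike numbers of intervals, 235580 at 24 hpf and 517701 in the adult. The interval ratios are thus not folds corrected for copied tags.

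The members above 1000 CPM differed in their adult level, which was either near 0 or above 100 CPM. In 12 of the 23, all on chromosomes 12 and 22, the adult library held at most 4 tags, and they were 16.4-fold to 189-fold lower at 72 hpf than at 24 hpf. The other 11, on 10 chromosomes, had adult levels of 109 to 1415 CPM and were 4.41-fold to 11.96-fold lower at 72 hpf.

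Absence in the later libraries was mostly seen among weak members. In 241 members no tag was found at 72 hpf and in 311 none in the adult. In 149 members (18.2%) neither later library held a tag. These 149 had a median of 4.31 CPM at 24 hpf, and 133 of them had under 10 CPM. Any site over 3 CPM without later tags is a member by the rule, so 0 of the 14291 other sites lacked tags in both. How many other sites lacked tags in a single later library was not counted. The 671 members with a later tag had a median of 10.9 CPM at 24 hpf. The strongest member with no later tag was the chromosome 12 plus-strand site at 18018783, with 489 tags at 24 hpf (65.9 CPM), so it was at least 215-fold lower at 72 hpf and at least 164-fold lower in the adult, with the empty libraries set to 3 tags. It lies 14 nt from a far stronger site, 18018797, and need not be a separate end. Next came the chromosome 12 minus-strand site at 21691908 (278 tags), the chromosome 4 plus-strand site at 16721738 (261 tags), the chromosome 21 plus-strand site at 44498511 (206 tags) and the chromosome 15 plus-strand site at 5326 (205 tags). These had 37.5, 35.2, 27.8 and 27.6 CPM at 24 hpf, and they were at least 90.3-fold lower at 72 hpf and at least 68.8-fold lower in the adult.

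Between the later stages the members were ordered both ways. The 72 hpf level was above the adult level in 454 members and below it in 217, and the 149 others had no tag in either. A single tag is worth 0.102 CPM at 72 hpf and 0.134 CPM in the adult. Many members had few later tags, and with equal counts depth alone sets this order. Measured as CPM + 0.5, the 72 hpf level was at least 4 times the adult level in 90 members, which together had 116728 CPM at 24 hpf, 7276 CPM at 72 hpf and 467 CPM in the adult. The 5 strongest of them were 4 chromosome 12 sites already named, 17701282, 17962598, 17784892 and 17941585, and the chromosome 23 site at 45382174. The reverse was rare, with 3 members. These were the chromosome 16 plus-strand site at 58404668 (45.9, 0.713 and 5.09 CPM at 24 hpf, 72 hpf and in the adult), the chromosome 15 plus-strand site at 2463999 (23.7, 0.510 and 4.69 CPM) and the chromosome 19 minus-strand site at 34292992 (16.8, 0 and 3.35 CPM). They rest on 25 to 38 adult tags. The same counts were not made for the other 14291 sites. Their median level was also higher at 72 hpf (12.7 CPM) than in the adult (7.23 CPM).

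Many members stood close to the limits. The member nearest to the fold limit was the chromosome 2 plus-strand site at 49626374, with 47.7 CPM at 24 hpf, 11.4 CPM at 72 hpf and 9.50 CPM in the adult. Beside it stood 2 weak members, the minus-strand sites at 7261 on Zv9_scaffold3557 and at 4500702 on chromosome 14, each with 30 tags at 24 hpf and 5 at 72 hpf. The sites just outside had 33 tags at 24 hpf and 6 at 72 hpf, at 47460209 on the minus strand of chromosome 1, 44596037 on the plus strand of chromosome 19 and 40343897 on the plus strand of chromosome 14. At the limit on the 24 hpf level, members had 23 tags there (chromosome 11 minus strand 180879, chromosome 9 minus strand 767585, chromosome 17 plus strand 5865657), and the first sites outside had 22 (chromosome 16 plus strand 57010347, chromosome 7 minus strand 56806554, chromosome 20 plus strand 51537462). A single tag separates members from other sites at the limit on the 24 hpf level. At least 8 times both later levels was reached by 251 members, 16 times by 92, 32 times by 36 and 100 times by 5.

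Members lay near each other along the chromosomes. Position was not used by the rule, apart from the regions left out. Each member was paired with every same-strand site over 3 CPM lying 50 nt to 50000 nt away. In 802 of 2251 such pairs (35.6%) the neighbour was itself a member. In pairs formed the same way from the other sites, the neighbour was a member in 1449 of 22281 (6.50%). A neighbour is counted once for each site it lies near, so large groups weigh more. Outside the chromosome 12 block the share around members was 28.6%. Sites peaking at 72 hpf were chosen by the same rule with the stages exchanged (2250 of 17780 sites, 12.7%). Their neighbour was of the same kind in 37.0% of pairs. Around the other sites over 3 CPM at 72 hpf it was such a peak site in 8.88%. By this count, such closeness was also seen for sites of another stage. Their largest local group, of 33 sites with gaps of at most 50000 nt, was not left out. Tags of 1 transcript with several ends are counted at several sites, so neighbouring members are not independent.

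When members of a strand were joined over gaps of at most 50000 nt, 186 (22.7%) fell into 43 local groups of at least 3, 150 stood in pairs and 484 stood alone. Among all sites with at least 3 CPM at 24 hpf, which are denser, 46.8% fell into such groups, and among the sites peaking at 72 hpf 12.6%. With members beside a larger same-strand site within 49 nt left out, 17.9% of the remaining members were in groups.

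A block of chromosome 12 held 34 members among the 38 sites over 3 CPM between 17517713 and 18053914, 28 on the minus strand and 6 on the plus strand. These members summed to 88293 CPM at 24 hpf, 3558 CPM at 72 hpf and 2.28 CPM in the adult, and they made up 51.8% of all member tags at 24 hpf. The other 786 members summed to 82293 CPM at 24 hpf, 10800.4 CPM at 72 hpf and 5951 CPM in the adult. Adult tags were absent from 26 of the 34 and numbered at most 4 at any of them. The 4 sites over 3 CPM that were no members lay at the borders, at 17517713 on the minus strand and at 18033678, 18033697 and 18053914 on the plus strand. The strongest of these, 18033697, had 152 CPM at 24 hpf, 236 CPM at 72 hpf and 34.5 CPM in the adult.

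**Figure D2:**
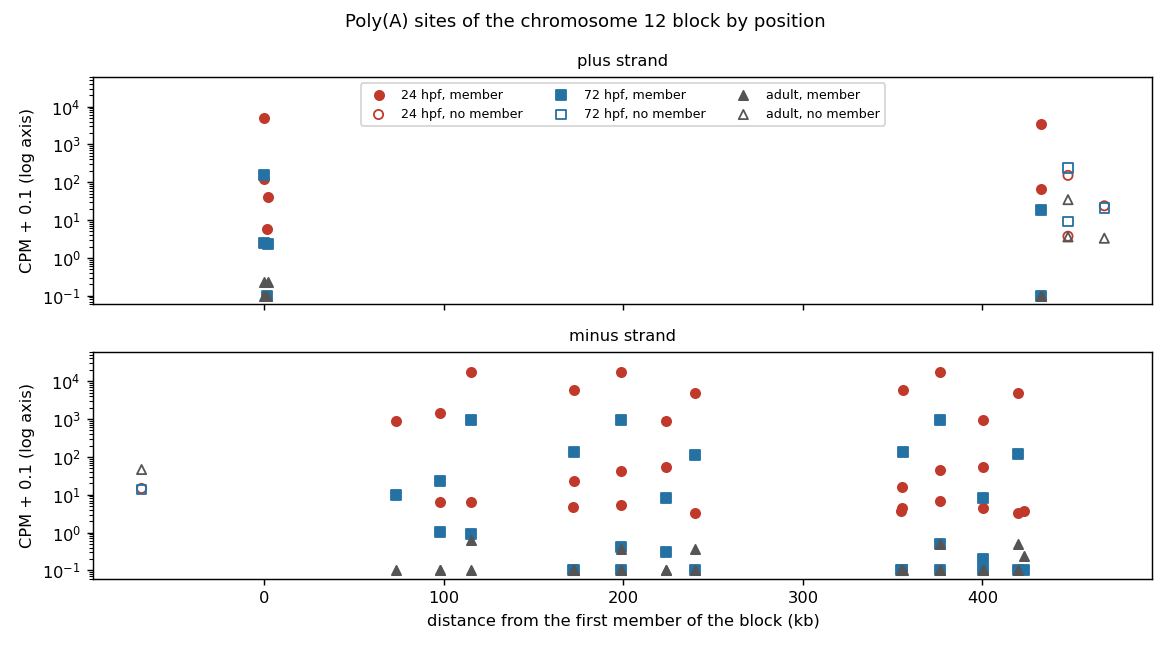
Level in CPM + 0.1 (log axis) of every site with at least 3 CPM at 24 hpf in the chromosome 12 block, on the plus strand (top) and the minus strand (bottom), against distance from the first member in kb. Filled symbols are members and open symbols other sites, and the minus-strand members form 3 runs of 5, 10 and 13 sites whose adult levels stay under 1 CPM.

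Its minus-strand members formed 3 of the local groups, and these were the strongest of the 43. The group from 17940798 to 18009244 had 13 members and summed to 29741 CPM at 24 hpf, 1198 CPM at 72 hpf and 0.937 CPM in the adult. The group from 17757745 to 17825928 had 10 members and summed to 29676 CPM, 1203 CPM and 0.535 CPM. The group from 17659527 to 17701282 had 5 members and summed to 20246 CPM, 976 CPM and 0.535 CPM. In each group, every site over 3 CPM was a member.

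Each of these groups held both strong and weak ends. In the group of 13, the strong ends were 17962598, 17941585, 18005763 (4841 CPM at 24 hpf) and 17986367 (925 CPM). Its 9 weak members were 17986301 with 54.3 CPM, 17962526 with 45.3 CPM, 17941512 with 16.2 CPM, 17962515 with 6.601 CPM, 17941501 and 17986087 with 4.31 CPM each, 17940798 and 18009244 with 3.64 CPM each and 18005689 with 3.10 CPM. In the group of 10, the strong ends were 17784892, 17758538, 17825928 (4867 CPM) and 17809767 (916 CPM), and the weak ones were 17809701 (54.4 CPM), 17784820 (42.0 CPM), 17758459 (23.6 CPM), 17784809 (5.39 CPM), 17757745 (4.58 CPM) and 17825850 (3.10 CPM). In the group of 5, the strong ends were 17701282, 17684092 (1418 CPM) and 17659527 (896 CPM), beside 17684014 (6.47 CPM) and 17701204 (6.20 CPM). At 72 hpf the strong ends kept 8.15 to 944 CPM, and none of the weak ones passed 1 CPM.

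The strong ends of the groups of 13 and of 10 members formed pairs of nearly the same tag count. Members with at least 200 tags at 24 hpf were compared by the tag counts of their intervals, lined up at the 3′ end. A pair was called near-equal if the totals were within 1.1 times of each other and the chi-square of the interval counts, divided by the number of intervals, was below 1.6, settings chosen with these data in view. Of 213 members compared, 15 fell into 7 near-equal sets, all within 1 chromosome, and 11 of the 15 were in the block. Sites 17784892 and 17962598 were joined by 17701282 in a set of 3 (132444, 132740 and 133019 tags). Site 17758538 paired with 17941585 (43934 and 44189 tags), 17809767 with 17986367 (6797 and 6865 tags) and 17825928 with 18005763 (36129 and 35932 tags). The weak ends 17784820 and 17962526 formed another pair (312 and 336 tags). Within these sets the chi-square per interval was 0.554 to 1.34. The gaps between partners of the groups of 10 and of 13 were 183047, 177706, 176600 and 179835 nt. Whether tags matching several places in the genome were listed at each of them was not tested, and the partners need not be separate ends. The near-equal sets held 45.4% of all member tags at 24 hpf.

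Elsewhere, near-equal pairs were found at 43166591 and 43177082 on the plus strand of chromosome 11 (562 and 530 tags) and at 5981075 and 5987221 on the minus strand of chromosome 19 (358 and 355 tags). Counting each set once would leave 812 members.

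The leading ends of the block differed in how low they stood at 72 hpf. The set of 17701282, 17784892 and 17962598 was 18.9-fold to 19.1-fold lower than at 24 hpf. Sites 17758538 and 17941585 were 43.4-fold (95% interval 41.1 to 45.8) and 44.1-fold lower (41.8 to 46.6), and 17825928 and 18005763 were 42.9-fold (40.4 to 45.5) and 40.6-fold lower (38.3 to 43.1). Sites 17809767 and 17986367 were 111-fold (89.1 to 140) and 113-fold lower (91.0 to 143). By counting error alone, partners had overlapping 95% intervals, and those of the set of 3 and of the pair at 17809767 and 17986367 lay apart from all others of these. Copied tags make these 95% intervals too narrow. At 72 hpf, the 81 and 80 tags of 17809767 and 17986367 lay on 7 and 9 distinct intervals. Partners need not be separate ends, so their overlap says little. The sites without a partner were 17586055 on the plus strand (30.8-fold lower, 29.2 to 32.4), 17684092 (63.5-fold, 55.6 to 73.0), 17659527 (94.5-fold, 77.1 to 117) and the plus-strand site at 18018797 (189-fold, 163 to 220.0).

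A weak second end stood at a similar distance behind nearly every strong end of the block. Of the 13 members with at least 800 CPM at 24 hpf, 12 had a site with at least 4 tags 66 to 79 nt downstream, and 18018797 had none at 50 to 100 nt. The downstream site held 0.0346% to 5.94% of the tags of the strong end. In 11 of the 12 it was itself a member, which adds to the count of members in the block. The highest shares were at 17809701 and 17986301, both 66 nt downstream, with 404 and 403 tags beside 6797 and 6865. A range of 60 to 79 nt downstream, which takes in the distances seen in the block, was then used for sites with at least 100 CPM. It held a site for 12 of 14 such members in the block (85.7%). That share was largely set in advance, since the range was chosen from the block's own distances. Outside the block, such a site was found for 6 of 82 members (7.32%) and 50 of 1134 other sites (4.41%). The contrast with the block is thus no test. These sets were not matched in level, and a site of few tags is seen more easily beside a very strong end. Near-equal partners in the block are not separate cases. At the same distance upstream, a site was found for 11 of these 82 members (13.4%), against 86 of the other sites (7.58%).

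Another 19 local groups outside the block had at least 4 members. On chromosome 22, plus strand, 6 members from 14238696 to 14248790 summed to 7314 CPM at 24 hpf, 446 CPM at 72 hpf and 0.402 CPM in the adult. Nearly all of it lay at 14238859 (3747, 225 and 0 CPM) and 14243512 (3459, 211 and 0.402 CPM). Their levels were alike at 24 hpf and at 72 hpf, but their intervals were not near-equal by the rule above. This pair had the adult-absent pattern of the chromosome 12 block on another chromosome.

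On chromosome 15, plus strand, 4 members from 4020 to 5468 summed to 3110 CPM at 24 hpf, 481 CPM at 72 hpf and 215 CPM in the adult, 98.2% of it at 5468. On chromosome 16, minus strand, 8 members from 48968122 to 48978544 summed to 1245 CPM at 24 hpf, 22.01 CPM at 72 hpf and 3.61 CPM in the adult. The group was 56.6-fold lower at 72 hpf (95% interval 49.4 to 65.0) and 344-fold lower in the adult (237 to 523). Its leading site, 48968492, had 890 CPM at 24 hpf, 15.3 CPM at 72 hpf and no adult tag, and the site 81 nt downstream of it, 48968411, had 250.2 CPM, 2.14 CPM and no adult tag. On chromosome 8, minus strand, 4 members from 43206073 to 43206429 summed to 1085 CPM at 24 hpf, 137 CPM at 72 hpf and 37.5 CPM in the adult, with 961 CPM of the 24 hpf level at 43206073.

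Groups of 7 members stood on chromosomes 21, 4 and 23. The chromosome 21 plus-strand group from 44496449 to 44499149 summed to 616 CPM at 24 hpf, 30.1 CPM at 72 hpf and 0.669 CPM in the adult. It had 2 strong ends 472 nt apart, 44496507 (296, 14.1 and 0.535 CPM) and 44496979 (259, 15.3 and 0.134 CPM). The chromosome 4 plus-strand group from 11097874 to 11099502 summed to 604 CPM at 24 hpf and 59.2 CPM at 72 hpf, with no adult tag at any member, and was led by 11097895 (573, 56.8 and 0 CPM). The chromosome 23 minus-strand group from 42882597 to 42910753 had no dominant end. It summed to 67.0 CPM at 24 hpf, 4.89 CPM at 72 hpf and 2.14 CPM in the adult, and its leading site, 42910622, held 21.9% of the 24 hpf level.

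The other groups of at least 4 had leading sites of 20.1 to 182 CPM at 24 hpf. On chromosome 14, minus strand, 6 members from 48280283 to 48305201 summed to 58.7 CPM at 24 hpf, 0.917 CPM at 72 hpf and 0.937 CPM in the adult, led by 48280553 (20.1 CPM). On chromosome 7, plus strand, 5 members led by 40799484 summed to 207 CPM, 24.5 CPM and 2.54 CPM. Groups of 4 were led by 55787016 (156 CPM at 24 hpf) on the plus strand of chromosome 20, 43166591 (75.7 CPM) on the plus strand of chromosome 11, 26202750 (141 CPM) on the plus strand of chromosome 16 and 5981075 (48.2 CPM) on the minus strand of chromosome 19. The remaining leaders were 59487925 (39.9 CPM) on the minus strand and 56976776 (29.9 CPM) on the plus strand of chromosome 2, 47909998 (70.6 CPM) on the minus strand of chromosome 8, 55998438 (38.0 CPM) on the minus strand of chromosome 3, 3770915 (35.4 CPM) on the minus strand of chromosome 23 and 4337775 (29.8 CPM) on the plus strand of chromosome 13. In the groups on chromosomes 3 and 19 no adult tag was found, whereas the chromosome 16 plus-strand group kept 22.01 CPM at 72 hpf and 22.6 CPM in the adult.

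**Figure D3:**
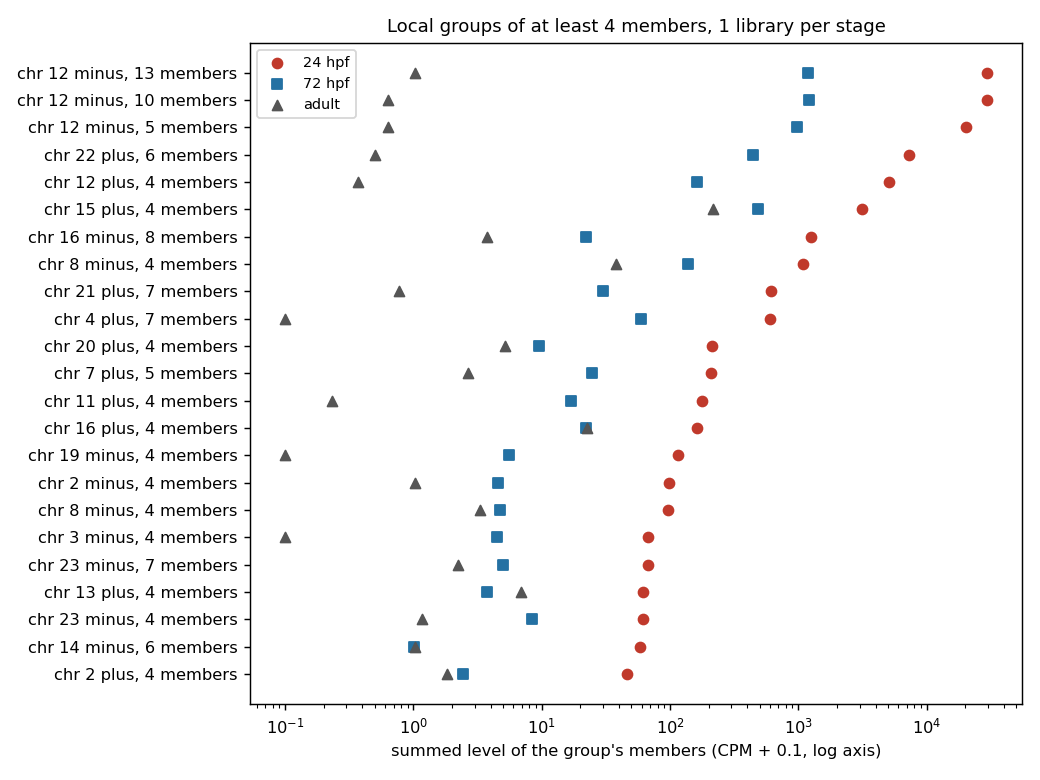
Summed level in CPM + 0.1 (log axis) of the members of each local group with at least 4 members at 24 hpf (circles), 72 hpf (squares) and in the adult (triangles), with 1 row per group. At 72 hpf the groups lie between 0.917 and 1203 CPM, and 3 groups, on chromosomes 4, 19 and 3, have no adult tag.

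Members were spread over all 25 chromosomes. The share of sites over 3 CPM that were members lay between 3.08% on chromosome 9 and 9.01% on chromosome 12. Outside its block, chromosome 12 had 17 members among 528 sites (3.22%). The next shares were 7.38% on chromosome 16 (51 of 691 sites), 6.94% on chromosome 21 (42 of 605) and 6.75% on chromosome 14 (40 of 593). On unplaced scaffolds 12 of 237 sites (5.06%) were members. The strands were alike, with 420 of 7611 sites (5.52%) on the plus strand and 400 of 7500 (5.33%) on the minus strand.

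Members stood beside other ends more often than the other sites did, and they were more often the minor end. Within 50 to 5000 nt on the same strand, 322 of 820 members (39.3%) had no other site over 3 CPM at 24 hpf, against 9476 of 14291 other sites (66.3%). The member was stronger than every end 50 to 5000 nt away in 463 cases (56.5%), against 11557 (80.9%) for the other sites. Less than 10% of the tags of this window lay at the member in 222 cases (27.1%), against 923 (6.46%) for the other sites. The median share of the window was 58.2% for members and 91.4% for the other sites. With sites beside a larger one within 49 nt left out of both sets, the strongest end was the member in 58.5% and the other site in 81.7%.

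The ends around members were lower at the later stages more often than the ends around the other sites. Windows with at least 20 tags at 24 hpf were measured. With neighbouring members counted, the ends were at least 4-fold lower in 239 of 554 windows around members at 72 hpf (43.1%) and in 295 in the adult (53.2%). Other members were left out of the counts that follow, which takes out ends that the rule chose as lower. At 72 hpf the remaining ends were at least 4-fold lower in 134 of 467 windows around members (28.7%), 2-fold to 4-fold lower in 126, within 2-fold in 188 (40.3%) and at least 2-fold higher in 19. Around the other sites they were at least 4-fold lower in 356 of 5947 windows (5.99%) and within 2-fold in 3898 (65.5%). In the adult they were at least 4-fold lower in 199 of 467 windows around members (42.6%), against 1337 of 5947 (22.5%) around the other sites. Windows of close sites overlap, so they are not independent.

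**Figure D4:**
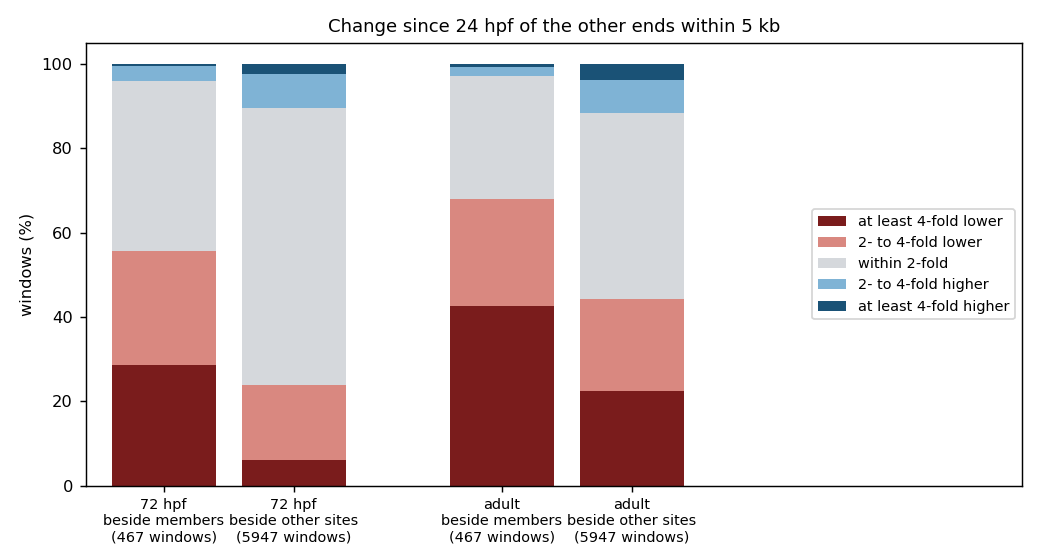
Share of windows (%) by the change since 24 hpf of all other same-strand ends 50 to 5000 nt away, members left out, for windows around members and around other sites with at least 3 CPM at 24 hpf, at 72 hpf (left pair) and in the adult (right pair). At 72 hpf 28.7% of 467 windows around members and 5.99% of 5947 windows around other sites were at least 4-fold lower.

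Some members stood beside single ends whose 72 hpf level was within 2-fold of the 24 hpf level. A kept neighbour was a site over 3 CPM at 24 hpf, no member, 50 to 5000 nt away on the same strand and within 2-fold of its 24 hpf level at 72 hpf, measured as CPM + 0.5. It was found for 196 members (23.9%), against 3263 other sites (22.8%). A neighbour kept in the adult was found for 126 members (15.4%), against 2145 other sites (15.0%). Both were found for 85 of the 820 members, against 1583 of the 14291 other sites. The shares were close to those of the other sites, although more members had a neighbour at all. Of the 498 members with a neighbouring site over 3 CPM, 39.4% had a kept one, against 67.8% of 4815 such other sites. Part of this difference is set by the definition, since a neighbouring member cannot be a kept one. Of these 498 members 47.6% had a neighbouring member, against 9.43% of these other sites. The strongest kept neighbour lay downstream in 135 cases and upstream in 61, at a median distance of 581.5 nt. Both ends may belong to different transcripts.

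In these pairs the member's share must fall at 72 hpf, since the member was chosen as lower and the neighbour as kept. The neighbour was not chosen by its adult level, so the adult share was not set in this way. In some pairs it was higher in the adult library than at 24 hpf. At 24 hpf the member had more tags than the neighbour in 53 of the 196 pairs and at 72 hpf in 13. The median share of the member was 19.8% in the 24 hpf library, 0.669% in the 72 hpf library and 1.16% in the adult library. The 5 strongest members with a kept neighbour all had far more tags than it. They were 19231879 on the minus strand of chromosome 18 (4008 CPM at 24 hpf, beside 19231786 with 54.0 CPM), 54978401 on the plus strand of chromosome 8 (3269 CPM, beside 54978341 with 3.91 CPM), 43640231 on the plus strand of chromosome 11 (2224 CPM, beside 43639516 with 160.0 CPM), 46429495 on the plus strand of chromosome 5 (1985 CPM, beside 46429927 with 3.23 CPM) and 6837633 on the minus strand of chromosome 10 (817 CPM, beside 6837517 with 9.83 CPM). The share changed most at the chromosome 11 member among these 5, with 93.3% of the pair in the 24 hpf library (95% interval 92.9% to 93.7%), 84.0% in the 72 hpf library (82.9% to 85.0%) and 68.6% in the adult library (65.9% to 71.2%). The neighbours 54978341 (29 tags at 24 hpf and 19 at 72 hpf) and 46429927 (24 and 14 tags) were weak. They were within 2-fold only with the added 0.5 CPM.

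The end with more tags of the pair changed in 7 of the 122 pairs that had at least 100 tags in each embryo library. The member had no larger site within 49 nt, and other ends near the neighbour were not considered. Some pairs share a neighbour, and the pairs named here were chosen after their values were seen. On chromosome 20, plus strand, the member at 55787016 had 1161 tags in the 24 hpf library, 37 in the 72 hpf library and 18 in the adult library. The end 449 nt downstream, at 55787465, had 119, 206 and 43 tags in the same order. The share held by the member was 90.7% at 24 hpf (95% interval from 89.0% to 92.2%), 15.2% at 72 hpf (10.95% to 20.4%) and, with few tags, 29.5% in the adult (18.5% to 42.6%). On chromosome 15, plus strand, the member at 5326 had 205 tags at 24 hpf and none later, whereas 5498, 172 nt downstream, had 159, 148 and 236. The member 5468 (22664, 4707 and 1601 tags) was far stronger than both in every library. It lay within 49 nt of 5498, which need not be a separate end, and 5326 held 0.877% of its window at 24 hpf. On chromosome 2, plus strand, the member at 56976776 had 222, 20 and 9 tags, and 56976833, 57 nt downstream, had 107, 124 and 112. Also on chromosome 2, plus strand, the member at 54263121 had 193, 28 and 10 tags, and 54262316, 805 nt upstream, had 162, 188 and 215.

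**Figure D5:**
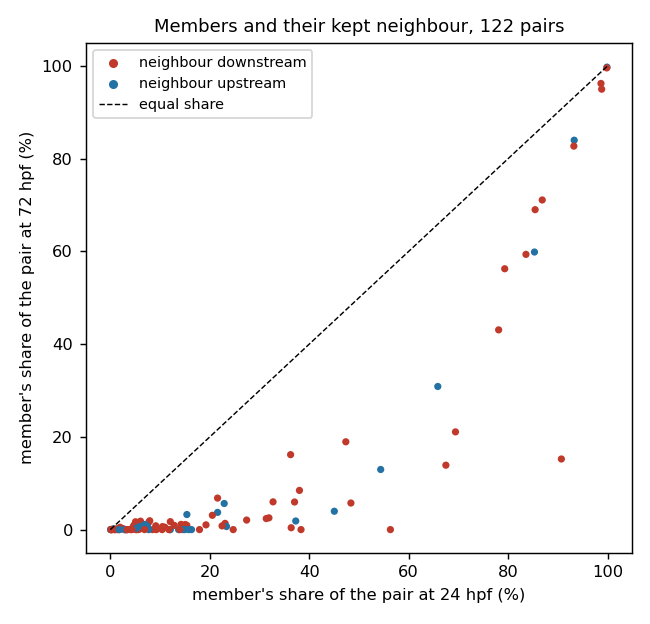
Member's share of the tags of the pair (%) at 72 hpf against 24 hpf, for 122 pairs of a member and its kept neighbour with at least 100 tags in both libraries, coloured by the side of the neighbour. The points lie below the dashed line of equal share or, near its ends, close to it, as the choice of the pairs sets, and in 7 pairs the share is above 50% at 24 hpf and below 50% at 72 hpf.

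Ends of the opposite strand were about as frequent near members as near the other sites. Within 100 nt, 15 of 820 members (1.83%) had a site of the other strand over 3 CPM, against 303 of 14291 other sites (2.12%). Within 1000 nt the shares were 5.85% for members and 5.32% for the other sites. The opposite site was itself a member for 6 of the members (0.732%) within 1000 nt, against 46 of the other sites (0.322%), and for 3 of the members (0.366%) within 100 nt, against 14 of the other sites (0.0980%). These are small counts, and both partners of an opposite pair of members are counted.

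Below 100 CPM, the spread of the cut around its leading position was similar at members and at other sites in the same range of level. Between 10 and 30 CPM, the leading position took a median of 80.4% of the 24 hpf tags at members and 79.4% at other sites. Between 3 and 5 CPM the medians were 81.2% at members and 82.8% at other sites, and from 100 CPM they were 93.3% at 96 members and 86.4% at 1134 other sites. The quartiles of members from 100 CPM, 66.6% and 98.1%, overlapped widely with those of the other sites, 68.7% and 95.5%. This range has no upper limit, so its sets were not matched in level. Above 1000 CPM 23 of 120 sites were members, against 73 of 1110 between 100 and 1000 CPM. The chromosome 12 block held 14 of the 96 members, and near-equal partners there need not be separate ends.

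Where a member kept at least 20 tags at a later stage, its leading position was mostly the one used at 24 hpf. At 72 hpf this held for 209 of 237 members (88.2%), against 88.2% of 12897 other sites. In the adult it held for 109 of 126 members (86.5%), against 87.0% of 10238 other sites. The leading position of some strong members differed by a few nucleotides. The examples, the strongest members with a difference, were chosen after their values were seen. At the chromosome 21 minus-strand site 286522, this position took 67.1% of the 24 hpf tags, 32.1% of the 72 hpf tags and 33.2% of the adult tags. The position 3 nt downstream, 286519, took 32.1%, 66.0% and 62.9%. At the chromosome 14 plus-strand site 22116460, the 24 hpf position took 93.1% at 24 hpf and 46.4% in the adult, where 22116465, 5 nt downstream, took 53.0%. At the chromosome 23 plus-strand site 45382174, the 24 hpf position took 74.6% at 24 hpf and 33.8% in the adult, where 45382172, 2 nt upstream, took 60.8%. Both of these had their 24 hpf position in the lead at 72 hpf. At the chromosome 15 plus-strand site 5468, the 24 hpf position took 70.1% at 24 hpf and 49.3% at 72 hpf, where 5464, 4 nt upstream, took 50.4%. These shares are over tags, so copies of the same molecule weigh in them.

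Most members rested on several distinct intervals, that is on tags with different start or end positions. At 24 hpf 15.1% of all intervals had a single tag, against 53.0% in the adult. In 805 of 820 members at least 2 intervals were seen at 24 hpf, and in 623 (76.0%) at least 5, against 84.7% of the other sites. A single interval supported 15 members (1.83%) and 47 other sites (0.329%). Within the same range of level the sets were close, with a median of 9 intervals at members and 10 at other sites between 10 and 30 CPM. From 100 CPM it was 24 at members and 23 at other sites. In every range below 100 CPM the median was slightly lower at members. The median of tags per interval was higher at members in every range. It was 13.2 against 12.6 between 10 and 30 CPM and 103 against 78.9 from 100 CPM. The range from 100 CPM has no upper limit, so the sets there were not matched in level. When distinct intervals were counted in place of tags, 404 of the 820 members still passed the limits. By this count a single interval at 24 hpf with none later is enough to pass, and 9061 sites passed. A larger same-strand site within 49 nt stood beside 87 members (10.6%), against 811 other sites (5.67%), and these need not be separate ends.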

How the data were processed

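The authors' deposited files list genomic intervals with a strand and a whole number, read here as a count of tags per interval that was not normalized. No label says what the number is, and the item colours change at set values of it. Tags were aligned with Bowtie to Zv9 (danRer7), per the submitters' processing notes. Its version was not given in the sources used here, nor was the handling of multiple matches. All positions were moved by 1, the display offset stated in the file headers.

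Plus-strand intervals were placed by their end and minus-strand intervals by their start, the 3′ side. Sites, CPM and members were computed as described above with Python 3.11.15, pandas 2.3.3 and scipy 1.17.1. Ratios have exact conditional 95% intervals and shares exact Clopper-Pearson intervals. In a library without tags the floor was 3 tags. Named sites are the 10 strongest members, the 5 strongest without later tags, the 5 strongest of each order between the later stages, the leaders of local groups of at least 4, all members of the 3 strongest groups, the 5 strongest with a kept neighbour, and the 3 sites on each side of the limits. Other sites named, such as those with a changed leading position or pair share and the strongest in the regions left out, were chosen after their values were seen. Alternatives changed scaling, clustering window, unit, thresholds, pseudocount, support and distances. The members and lists were chosen with earlier results of these data known. Clustering and fold rule were run on simulated data as a check of the code. The simulation held no copied tags, so the effect of copied tags on the fold rule was not tested.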

Additional observations from a re-analysis of the deposited data

Results flagged for a closer look

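In the regions left out of the rule, sites meeting the same limits were found, a signal in data that the comparisons above do not use. Chromosome M had 23 such sites among 227 over 3 CPM at 24 hpf, summing to 439 CPM at 24 hpf, 41.9 CPM at 72 hpf and 18.3 CPM in the adult. The strongest, on the plus strand at 4305, had 120.3 CPM, 4.18 CPM and 0.402 CPM. Chromosome 4 from 28000000 had 13 such sites among 102, summing to 187 CPM, 9.07 CPM and 4.02 CPM, led by the minus-strand site at 61297390 (63.6, 1.43 and 1.47 CPM). The left-out part of chromosome 22 had 0 such sites among 7.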

How the results depend on the processing

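The results with alternatives are the number of members (820), their share of the 24 hpf tags (17.1%), and the shares of members without later tags (18.2%), in local groups (22.7%) and with a kept neighbour (23.9%). Of 58 alternative values, 33 stayed within 1.5 times (for the count) or the 95% binomial interval (for a share) and 25 did not. The count was 251 with an 8-fold rule, 370 with a 24 hpf floor of 10 CPM, 497 with a pseudocount of 1 CPM and 9061 with distinct intervals in place of tags, where a single interval passes the floor. The share of 24 hpf tags was 16.7% with median-ratio scaling, 11.5% with the 8-fold rule and 16.8% with the 10 CPM floor. It was 16.8% with the pseudocount of 1 CPM. Without members of over 1000 tags that lay within 1 Mb and 1.1 times of another, it was 8.54%. With intervals, the 9061 sites held 6.49% of the distinct intervals at 24 hpf, which is not a share of tags. Members without later tags made up 93.7% with intervals, 33.5% with the 8-fold rule and 4.32% with the 10 CPM floor. Members in local groups made up 19.8% with a 24 nt window, 33.9% with intervals, 28.7% with the 8-fold rule and 17.0% with the 10 CPM floor. Members with a kept neighbour made up 52.6% with intervals, 13.8% with the 10 CPM floor and 16.5% with neighbours at 50 to 1000 nt. Chosen after the data were seen, adding 0.5 CPM on both sides of the fold rule gave 884 members and a share of 24 hpf tags of 17.1081%. Leaving out sites beside a larger one gave 16.9% of the tags and 17.9% in local groups, and leaving out the chromosome 12 block gave 8.23% of the tags and 19.6% in local groups. The median-ratio scaling kept 764 of the 820 members and 9 of the leading 10, and moved log2 ratios against 24 hpf by -0.09 at 72 hpf and 0.30 in the adult. Distinct intervals kept 404 of the 820 and 3 of the leading 10, whose ratios over the higher later level were 1.89 to 6.95. None of the leading 10 reversed in the alternatives run, which says little. Only the changes of scaling, clustering window and unit could alter their ratios, and the rule had chosen them as at least 4-fold higher. No paired analysis was possible because each stage has 1 library. At 3 CPM a member rests on 23 tags, so counts near the limits are decided by single tags.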
